A study of Mus musculus with 214 samples.

Results

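The livers described here are those of wild-type (WT) mice collected 1 day after their second dose of N-nitrosodimethylamine (NDMA) or saline. They were selected by the genotype and collection time in their labels, with earlier results of these data known. They are 47 of the 214 samples of the series, 26 from NDMA-treated mice and 21 from saline controls. WT here means RaDR+/+;GPT+/+ mice on a C57BL6 background with intact Mgmt, so NDMA and saline groups alike carried the RaDR reporter of homologous recombination and the gpt mutation reporter. NDMA was injected into the peritoneum at 8 days of age (3.5 mg/kg) and again at 15 days of age (7 mg/kg), 10.5 mg/kg in all. Saline controls received equal volumes of saline at those ages. The study designated litters for NDMA or saline at birth. It also describes the controls as sibling littermates, and says that mice came from separate litters where possible. The labels do not give the litter, so litter and treatment cannot be told apart here. Each library is the liver RNA of 1 mouse, read at the 3′ ends of its transcripts, and p-values measure the spread between these mice.

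NDMA is activated in hepatocytes by the cytochrome P450 CYP2E1, which is most abundant around the central vein, into a species that methylates DNA bases. O6-methylguanine is repaired directly by MGMT, other methylated bases are repaired by dioxygenases and base excision repair, and bases that escape repair block polymerases or mispair. Damaged DNA activates p53, which switches on genes of cell cycle arrest and cell death, and DNA reaching the cytoplasm can start interferon signaling, which switches on antiviral and antigen presentation genes.

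The libraries came from 3 sequencing runs named in the labels. Run 191212Eng held 8 NDMA and 8 saline libraries, 4 of each sex in either group. Run 200803Eng held 6 NDMA libraries, 3 from males and 3 from females, and 4 saline libraries, 2 of each sex. Run 210901Eng held 12 NDMA libraries, 6 of each sex, and 9 saline libraries, 3 from males and 6 from females. Depth was between 693940 and 4791649 reads in NDMA libraries (median 2547953) and between 569017 and 3741161 in saline libraries (median 2422289). Values below are normalized read counts per gene unless a fold change is named. All 13 hepatocyte markers were well measured: the most abundant, Alb (albumin), had a median of 70399 in NDMA and 100086 in saline livers, while the 5 kidney markers summed to at most 18.99 and the 6 pancreas markers to at most 19.4 in any library.

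Within run 200803Eng, 3 libraries stood apart from their group, and they are given first because results below rest on them. The library labelled NDMA male D209072 held 968 normalized counts of Xist, the transcript that silences the second X chromosome in females, and a sum of 1.17 over the Y-linked genes. The library labelled NDMA female D209077 held 0 of Xist and a Y-linked sum of 143, so in both libraries the sex genes went against the label. Their levels of Cdkn1a, the p53-driven inhibitor of the cell cycle, were 30.3 and 16.3, beside 307 to 435 in the other 4 NDMA libraries of that run. The library labelled saline female D209074 matched its labelled sex but held 359 of Cdkn1a, beside 12.7 to 31.1 in the other 3 saline libraries. Cyp2e1 ran the other way, at 3094 and 3122 in the libraries labelled NDMA D209072 and D209077, 317 to 488 in the other NDMA libraries, 262 in the library labelled saline D209074 and 2063 to 4985 in the other saline libraries. These libraries remain in all results unless stated, since groups were taken from the labels. The library labelled saline D209074 was singled out by these levels, so values given without the 3 libraries describe the rest and favor a difference between the groups. Values without the 2 libraries of mismatched sex do not depend on that choice.

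The same 3 libraries stood apart over many genes. A score was made from 300 genes called higher and 184 called lower in each of the other runs, as the mean log2 level of the first minus that of the second, so that run 200803Eng had no part in choosing the genes. In the larger runs, which chose them, the score lay between -2.29 and -1.44 in saline libraries and between 0.04 and 1.81 in NDMA libraries. In run 200803Eng it was -1.49 in the library labelled NDMA D209072 and -1.67 in that labelled NDMA D209077, and 0.25 to 0.80 in the other NDMA libraries. The library labelled saline D209074 had 0.61, and the other saline libraries had -1.43 to -1.20.

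**Figure D1:**
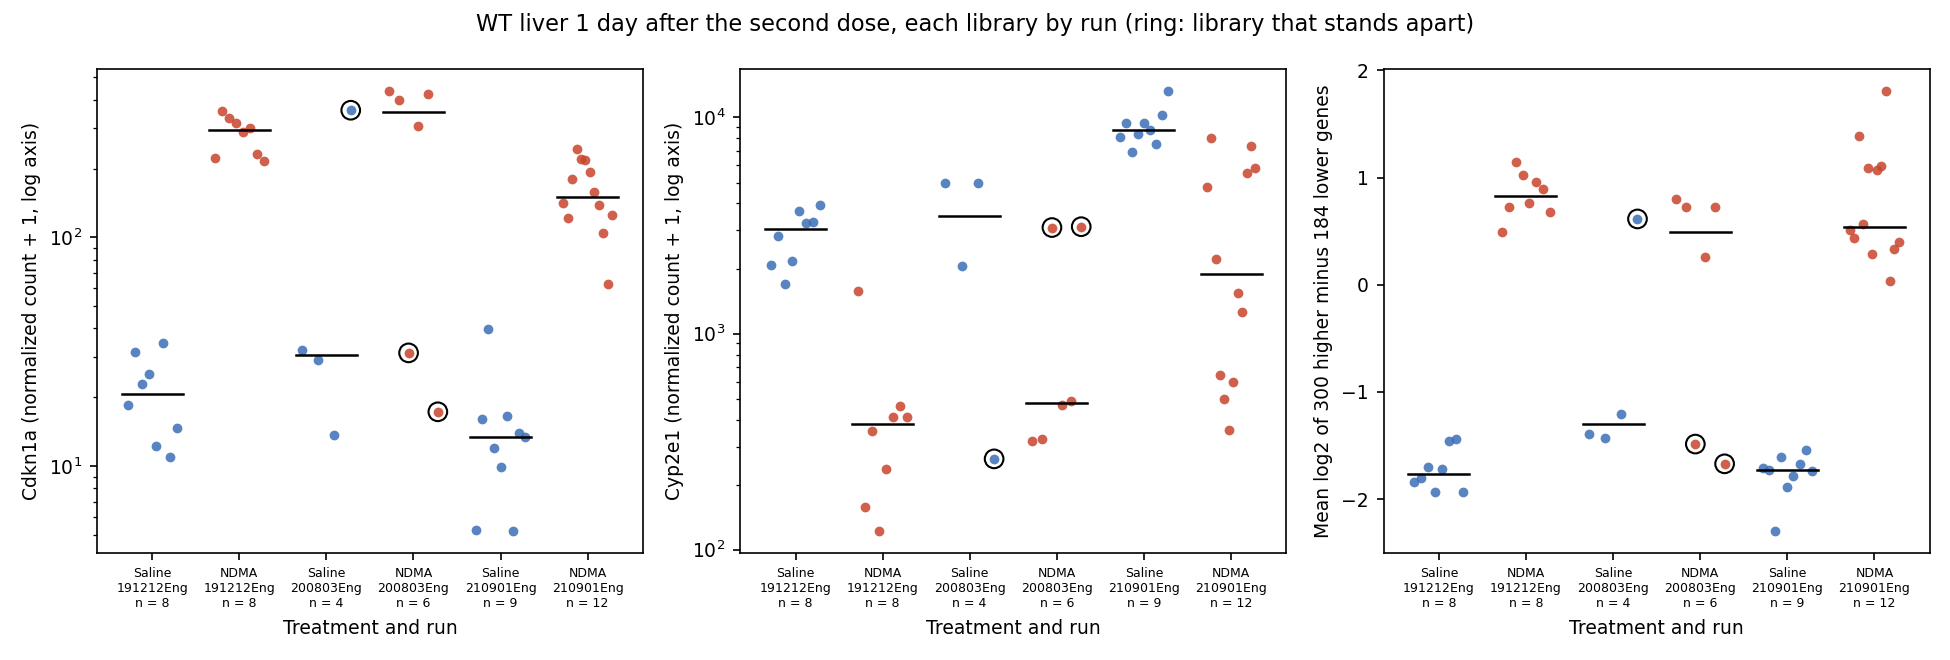
Normalized counts of Cdkn1a and Cyp2e1 (plus 1, log axes) and the score over 300 higher and 184 lower genes (log2 units) in each of the 47 libraries, by treatment and run, with a line at each group's median and rings around 3 libraries. The 2 ringed NDMA libraries sit at the saline level of their run and the ringed saline library near the NDMA level, in each of the plots.

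The effect of NDMA was fitted over the 3 runs together with limma, with terms for sex and run, over the 9028 genes whose mean count reached 5. A call meant that its Benjamini-Hochberg adjusted p was under 0.05 and the absolute log2 fold change, on the log2(value + 1) scale, was over 0.58. By this rule 452 genes were higher in NDMA livers (5.01% of those tested) and 378 were lower (4.19%). The counts of called members of each gene list below are to be read against these shares. With equal library totals in place of the size factors, 525 were higher and 276 were lower, which moved the share of higher genes among calls from 54.5% to 65.5%. Without the 3 libraries of run 200803Eng the counts were 561 and 480, and without the 2 of mismatched sex, 524 and 450. No gene called in the pooled fit was called the opposite way in any of these settings.

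Fitted run by run, genes were called in the larger runs and not in the small run as labelled. Run 191212Eng alone called 503 genes higher (5.57%) and 457 lower (5.06%), and run 210901Eng called 557 higher (6.17%) and 475 lower (5.26%). Run 200803Eng called 0 in either direction (0% and 0%) with limma and 0 with edgeR, with 272 genes at an unadjusted p under 0.05, against 2433 and 2580 in the larger runs. Equal library totals moved the median log2 fold change of all genes in run 191212Eng from -0.01 to 0.12, and its calls to 755 higher and 251 lower. Without the 3 libraries named above, run 200803Eng called 98 genes higher and 91 lower.

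The calls of each larger run were then read in the other. Of the 503 genes higher in run 191212Eng, 59.6% were also called higher in run 210901Eng and 93.6% had the same sign there. Of the 457 lower genes, 40.3% were called and 90.6% had the same sign, beside 66.8% for all tested genes. In the other direction, 53.9% of the 557 genes higher in run 210901Eng and 38.7% of its 475 lower genes were called in run 191212Eng. In all, 300 genes were called higher in both larger runs (3.32%) and 184 lower (2.04%), and 0 were called in opposite directions. For 45 of the genes tested (0.498%), every NDMA library lay above every saline library within both larger runs, and for 17 (0.188%) every NDMA library lay below.

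Most of these genes had the same sign in run 200803Eng. The genes were chosen by their change in the larger runs, which raises the sizes given for those runs, so the sizes are not a comparison between runs. Of the 300 higher genes, 79.7% were above 0 in run 200803Eng with all libraries, with a median log2 fold change of 0.27, against 1.21 and 1.19 in runs 191212Eng and 210901Eng. Of the 184 lower genes, 88.6% were below 0, with a median of -0.38 against -0.99 and -1.04. For all tested genes, 59.9% had the same sign in runs 200803Eng and 191212Eng and 56.4% in runs 200803Eng and 210901Eng. Without the 2 libraries of mismatched sex, the medians in run 200803Eng were 0.63 and -0.67. Without all 3, they were 0.85 and -0.81, 94.7% and 94.6% had the sign of the larger runs, and 84 and 56 genes passed the test in each of the 3 runs.

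**Figure D2:**
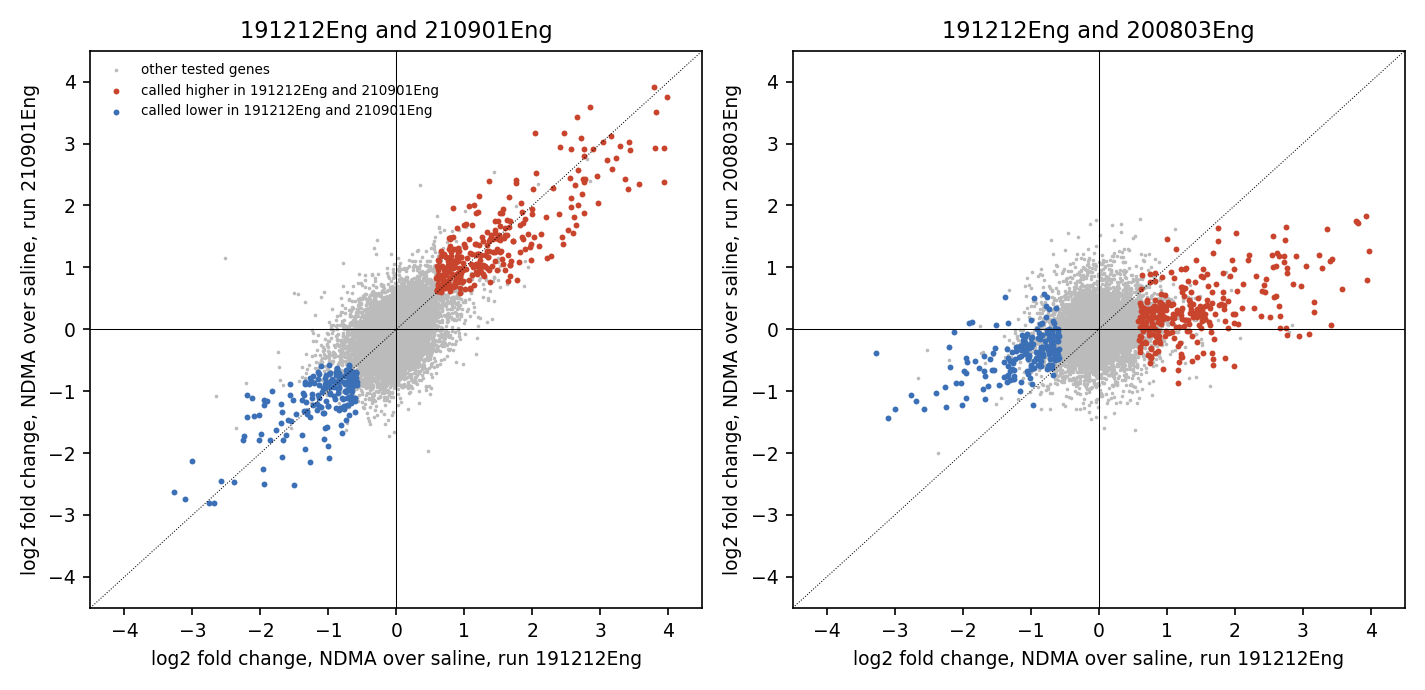
Log2 fold change of NDMA over saline for the 9028 tested genes, with run 191212Eng on the x axis against run 210901Eng and against run 200803Eng on the y axes, and colored points for genes called the same way in both larger runs. The 300 higher and 184 lower genes have medians near 1 and -1 on the axes of the larger runs and lie nearer 0 on that of run 200803Eng.

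The checkpoint and death genes of the p53 pathway gave some of the largest increases. Of 18 tested genes of p53 arrest and feedback, 14 rose and 0 fell, with a median log2 fold change of 1.44 against -0.03 for all genes. 13 of them passed in both larger runs, and for 7 the groups did not overlap within either. Of 13 tested p53 genes of cell death, 5 rose and 0 fell, with a median of 0.47.

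Cdkn1a (chromosome 17, 29090976 to 29100727, GRCm38), which encodes the cyclin-dependent kinase inhibitor p21, had 16.3, 218 and 435 normalized counts as the lowest, median and highest NDMA library and 4.23, 15.1 and 359 as those of saline. All 26 NDMA libraries lay above the saline median, but the pooled groups overlapped because of the 3 libraries named above. Its log2 fold change was 3.28 (SE 0.34, adjusted p = 1.08e-09 with limma), a 9.70-fold increase. Within run 191212Eng NDMA libraries had 215 to 358 and saline libraries 9.94 to 33.6, and within run 210901Eng they had 61.8 to 243 and 4.23 to 38.8, with no overlap in either. Its log2 fold changes were 3.82, 1.71 and 3.52 in runs 191212Eng, 200803Eng and 210901Eng.

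Ddit4l, an inhibitor of mTOR signaling, had 2.72, 46.8 and 77.8 in NDMA and 0, 2.62 and 84.6 in saline livers as lowest, median and highest. It had the largest increase of the genes tested, with a log2 fold change of 3.46 (SE 0.36, adjusted p = 1.07e-09). Phlda3, a p53-induced repressor of Akt, rose by 3.07 (log2), from a saline median of 0.555 to an NDMA median of 17.2, and Psrc1, a spindle-associated p53 target, rose by 2.44. Among the death genes, Eda2r, a death receptor of the TNF receptor family on the X chromosome, rose by 3.00 from a saline median of 0 to an NDMA median of 11.4. Bax, which opens the outer mitochondrial membrane, had 24.2, 68.0 and 146 in NDMA and 6.49, 17.8 and 191 in saline livers, and rose by 1.74 (SE 0.21, adjusted p = 8.62e-09). Tnfrsf18, the T cell receptor GITR, and Casp1, the inflammatory caspase, rose by 2.10 and 0.85.

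Of the DNA repair genes, 3 in the tested lists rose and 1 fell, where 5.01% and 4.19% of all genes were called higher and lower. Mgmt (chromosome 7, 136894614 to 137130266), whose protein takes the methyl group off O6-methylguanine, had 28.0, 67.1 and 120 in NDMA livers and 15.6, 37.4 and 129 in saline livers. 23 of the 26 NDMA libraries lay above the saline median, and the ranges overlapped. Its log2 fold change was 0.85 (SE 0.15, adjusted p = 2.16e-05), with 0.65, 0.22 and 1.26 in runs 191212Eng, 200803Eng and 210901Eng, and 1.03 without the 3 libraries. Mgmt lost its call when run 210901Eng was left out. Of the 15 tested genes of direct and base excision repair, 2 rose, Mgmt and Alkbh2 (0.61), a dioxygenase that demethylates bases in DNA, and the median was -0.10. Alkbh2 lost its call without run 191212Eng and with a pseudocount of 5.

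Of the 14 mismatch repair genes and 12 homologous recombination genes tested, 0 and 0 passed with limma, edgeR or DESeq2, with 4 and 1 at an unadjusted p under 0.05 and medians of -0.09 and 0.03, and 1 mismatch repair gene was lower without run 200803Eng. The most abundant of them, Rfc1 and Rpa3, had log2 fold changes of 0.06 and -0.06, and Rad50 and Nbn, subunits of the complex that senses broken ends, had -0.18 and -0.15. In translesion synthesis and nucleotide excision repair, 1 of 12 genes rose and 1 fell, and 2 rose without the 3 libraries, without run 200803Eng and with equal library totals, the last with 0 lower. Polk, the polymerase kappa that copies past bulky and alkylated bases, had 3.89, 14.4 and 38.9 in NDMA and 0.605, 3.77 and 30.4 in saline livers, with all 26 NDMA libraries above the saline median. It rose by 1.54 (SE 0.23, adjusted p = 6.68e-07), while Xpa, which verifies damage in nucleotide excision repair, fell by 0.62 and lost its call without run 191212Eng, with equal library totals, with a pseudocount of 5 and with treatment as the sole term.

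Interferon-stimulated genes formed another large group of higher genes. Interferons bind their receptors and activate transcription factors, the IRF family among them, which switch on GTPases that attack the vacuoles of intracellular pathogens, sensors and effectors against viral RNA, and the machinery of antigen presentation. Of 15 tested interferon-inducible GTPases, 13 rose and 0 fell, with a median log2 fold change of 1.43, and all 13 passed in both larger runs. Of 27 type I interferon effectors, 14 rose and 0 fell (median 0.69), 9 of them in both larger runs. Of 19 regulators of the pathway, 5 rose and 0 fell (median 0.10), and of 20 genes of MHC class I presentation and the immunoproteasome, 9 rose and 0 fell (median 0.49). In run 200803Eng the medians of the GTPase, effector, regulator and MHC class I lists were 0.35, 0.03, -0.0032 and 0.14. The effectors had 1.11 and 0.81 in runs 191212Eng and 210901Eng.

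Gbp2, a guanylate-binding GTPase, had 5.43, 123 and 364 in NDMA livers and 6.21, 20.4 and 91.3 in saline livers, with 24 of 26 NDMA libraries above the saline median. Its log2 fold change was 2.28 (SE 0.34, adjusted p = 1.42e-06), with 3.10, -0.08 and 2.74 in runs 191212Eng, 200803Eng and 210901Eng and 2.68 without the 3 libraries. Igtp, an immunity-related GTPase, had 37.3, 510 and 1678 in NDMA and 38.4, 101 and 267 in saline livers, and 21 of 26 NDMA libraries lay above every saline library. It rose by 1.95 (SE 0.26, adjusted p = 3.17e-07). Gbp10 and Tgtp1 rose by 2.21 and 2.13, and Tgtp1 has a near-identical copy, Tgtp2, so that its reads could be split between them.

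Among the regulators, Irf1 rose by 1.14, Irf9, a subunit of the type I complex, by 1.05, Irf8 by 0.95 and Irf7 by 0.63. Irf8 lost its call without run 191212Eng. Among the effectors, Zbp1, a sensor of Z-form nucleic acids, rose by 1.36, Ifit1, which binds foreign RNA caps, by 1.31, Xaf1 by 1.17 and Ifi27 by 1.11. Ifi27 had log2 fold changes of 1.28, 1.00 and 1.02 in runs 191212Eng, 200803Eng and 210901Eng, and all 26 NDMA libraries were above its saline median. Zbp1 and Xaf1 lost their calls without run 210901Eng.

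In antigen presentation, Ubd, the ubiquitin-like modifier FAT10, had 4.07, 60.8 and 161 in NDMA livers and 0, 10.6 and 259 in saline livers, where the highest value was the library labelled saline D209074. It rose by 2.58 (SE 0.41, adjusted p = 5.82e-06). Tap1, which carries peptides into the endoplasmic reticulum, rose by 1.29, and the immunoproteasome subunits Psmb9 and Psmb8 rose by 1.25 and 0.96. These 3 lost their calls without run 210901Eng, and Tap1 also without run 191212Eng.

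The promoters of the 3 genes with the largest increases among these 4 interferon lists that have a promoter in the RefSeq table (GRCm38.p6, 250 bases before to 50 after the start) are shown to let the increases be read beside their sequence. Capitals mark GAAA followed after any 2 bases by GAAA, the core of the interferon-stimulated response element (ISRE) that IRF complexes bind, or TTCNNNGAA, the core of the gamma-activated site (GAS), both searched on either strand. Ubd (chr17:37193642-37193941, plus strand) held neither, Gbp2 (chr3:142620413-142620712, plus strand) held the ISRE letters on the other strand from position -59 relative to the start, and Tgtp1 (chr11:48992197-48992496, minus strand) held the GAS letters from -88 and the ISRE letters from -77, with no base shared.
Ubd: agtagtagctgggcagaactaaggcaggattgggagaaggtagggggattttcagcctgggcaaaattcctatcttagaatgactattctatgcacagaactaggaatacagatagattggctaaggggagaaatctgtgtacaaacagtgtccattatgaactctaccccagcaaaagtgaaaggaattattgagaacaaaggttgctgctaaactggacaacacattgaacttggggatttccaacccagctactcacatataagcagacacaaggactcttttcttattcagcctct
Gbp2: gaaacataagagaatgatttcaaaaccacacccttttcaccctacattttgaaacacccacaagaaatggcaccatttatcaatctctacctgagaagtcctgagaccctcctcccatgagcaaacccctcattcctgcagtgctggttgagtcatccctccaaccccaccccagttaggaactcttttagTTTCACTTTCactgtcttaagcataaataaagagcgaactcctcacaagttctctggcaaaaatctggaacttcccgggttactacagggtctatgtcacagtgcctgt
Tgtp1: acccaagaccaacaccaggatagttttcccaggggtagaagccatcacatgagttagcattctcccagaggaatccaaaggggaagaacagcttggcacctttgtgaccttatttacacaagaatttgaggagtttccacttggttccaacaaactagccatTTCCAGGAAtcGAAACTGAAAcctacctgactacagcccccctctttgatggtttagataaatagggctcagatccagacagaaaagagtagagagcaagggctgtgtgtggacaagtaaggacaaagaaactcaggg

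Across the table, the ISRE letters were in 3.44% of 32851 promoters and in 4.11% of the 7223 tested genes with a promoter there, and the GAS letters were in 8.30% and 8.06%. The ISRE letters were in 8 of 8 interferon-inducible GTPases, 9 of 20 type I effectors, 2 of 18 regulators and 5 of 18 MHC class I genes with a promoter. Among the 9 type I effectors that rose and have a promoter, 3 held them. The GAS letters were in 4 of 8 of the GTPases, 4 of 20 effectors, 6 of 18 regulators and 1 of 18 MHC class I genes. A match describes the letters only.

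Chemokines, which draw leukocytes into tissue, rose beside the interferon genes. Of 12 tested, 7 rose and 1 fell, with a median of 1.10, and these 8 passed in both larger runs. Cxcl10, the interferon-induced ligand of CXCR3 on T cells, had 23.1, 98.3 and 232 in NDMA and 0, 12.7 and 208 in saline livers and rose by 2.75 (SE 0.33, adjusted p = 3.74e-08). Cxcl9, which binds the same receptor, rose by 2.43. Ccl2 and Ccl7, ligands of the monocyte receptor CCR2, rose by 2.64 and 2.24, and within both larger runs no NDMA library of Cxcl10 or Ccl2 overlapped the saline libraries.

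Some markers of leukocytes moved with these groups. 5 of 6 tested T and NK cell markers rose, among them Cd3d, a chain of the T cell receptor complex (1.19), Lck (1.04), Nkg7 (0.84) and Gzmb (0.83), and their summed level over 15 measured markers had a median of 107 in NDMA and 54.4 in saline livers. The most abundant, Nkg7, had medians of 22.7 and 12.1. Of the 5, 3 passed in both larger runs, and the list's median in run 200803Eng was -0.03. Without run 210901Eng, Cd3d, Nkg7 and Gzmb lost their calls, as did Nkg7 and Gzmb without run 191212Eng, Lck and Gzmb with a pseudocount of 5, and Gzmb with total reads as a term. Of 15 tested macrophage markers, 6 rose and 1 fell, with summed medians of 2036 and 1676. The macrophage genes that rose were led by Ccr2 (1.06), the scavenger receptor Marco (1.01) and the lysosomal Cd68 (0.80). Ccr2 and Marco lost their calls without run 210901Eng, and Marco also without run 191212Eng, and the median of the macrophage list in run 200803Eng was -0.30. Of 8 tested neutrophil markers, 2 rose and 0 fell, with a median of -0.04. Their medians were -0.71, -0.76 and 0.79 in runs 191212Eng, 200803Eng and 210901Eng. Of B cell markers, 0 of 2 tested passed with limma, edgeR or DESeq2 (0 at an unadjusted p under 0.05), and 1 was higher without run 200803Eng. In bulk liver, fewer or more cells of a type and less or more RNA per cell cannot be told apart, and the part of these cells in the interferon and chemokine results was not tested.

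Antioxidant and conjugation enzymes under the factor Nrf2 split, with 13 of 36 higher, 3 lower and a median of 0.32. Ephx1, the microsomal epoxide hydrolase, had 93.7, 1167 and 1765 in NDMA livers and 76.8, 163 and 353 in saline livers. 24 of the 26 NDMA libraries lay above every saline library, and the remaining 2 were the libraries labelled NDMA D209072 and D209077. Its log2 fold change was 2.59 (SE 0.20, adjusted p = 1.01e-12), a 6.01-fold increase, and within runs 191212Eng and 210901Eng it had the smallest adjusted p, 1.07e-15 and 2.59e-15. Gsta1, a glutathione transferase, rose by 3.31 (SE 0.26) from a saline median of 0 to an NDMA median of 15.4, and its close paralog Gsta2 rose by 1.48. Their sequences are alike, so the division of reads between them is uncertain. Cbr3, a carbonyl reductase, rose by 1.19, lost its call without run 210901Eng and with a pseudocount of 5, and did not reach the minimum mean without the 3 libraries, and the other 20 Nrf2 genes did not pass.

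Genes of the pericentral hepatocyte, the zone around the central vein that expresses CYP2E1, mostly fell. Of 24 tested, 17 fell and 1 rose, with a median of -1.09, and 14 of the lower genes passed in both larger runs. With equal library totals, 15 fell and 1 rose. Cyp2e1 (chromosome 7, 140763739 to 140774987) had 121, 545 and 8031 as the lowest, median and highest NDMA library and 262, 4962 and 13240 as those of saline. It fell by 2.28 on the log2 scale (SE 0.38, adjusted p = 1.17e-05), and by 3.00, 1.29 and 2.12 within runs 191212Eng, 200803Eng and 210901Eng, of which run 200803Eng did not pass, and it fell by 2.65 without the 3 libraries.

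The level of Cyp2e1 differed widely among NDMA-treated mice of run 210901Eng. In that run 7 of the 12 NDMA libraries had 355 to 2223, the other 5 had 4779 to 8031, and the 9 saline libraries had 6918 to 13240. Of these 5 libraries, 3 were from females and 2 from males. Their Cdkn1a values, 61.8 to 140, were all above the highest saline value of the run, 38.8. In run 191212Eng NDMA libraries had 121 to 1569 and saline libraries 1704 to 3950, with no overlap.

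Other genes of this zone fell as well. Glul, glutamine synthetase of the innermost pericentral cells, had 38.3, 75.7 and 302 in NDMA and 60.9, 310 and 536 in saline livers, and all 26 NDMA libraries lay below the saline median. It fell by 1.79 (SE 0.20, adjusted p = 3.48e-09), and within both larger runs the groups did not overlap. Slc1a2, the glutamate transporter of the same cells, had 1.49, 3.41 and 51.6 in NDMA and 10.1, 39.7 and 84.0 in saline livers and fell by 2.59, the largest decrease of the genes tested. Cyp1a2, the P450 that oxidizes aromatic amines, had 37.4, 143 and 1145 in NDMA and 72.7, 868 and 1730 in saline livers and fell by 2.42 (SE 0.34, adjusted p = 6.50e-07).

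Periportal genes, those of the opposite end of the lobule, did not fall: 9 of 25 rose and 0 fell, with a median of 0.26. Of the 9, 6 passed in both larger runs. The list's medians were 0.52, 0.08 and 0.07 in runs 191212Eng, 200803Eng and 210901Eng. The genes that rose were led by Cyp2f2 (1.31), a P450 of periportal cells, Etnppl (1.05), a phospholyase, Pigr (0.86), the carrier of IgA into bile, and Aldh1b1 (0.74). Pigr lost its call without run 191212Eng and Aldh1b1 with treatment as the sole term. Over the P450s of nitrosamine and drug metabolism as a list, 4 of 33 rose and 5 fell, with a median of -0.23. That is 12.1% and 15.2%, against 5.01% higher and 4.19% lower of all tested genes. Without the 3 libraries 4 rose and 7 fell, and without run 200803Eng 7 rose and 6 fell. Cyp2c67 (1.97) and Cyp2a4 (1.83) rose while Cyp2e1 and Cyp1a2 fell, and members of the Cyp2c and Cyp2a families are alike enough that reads could be shared. General hepatocyte markers gave 0 calls of 13 with limma in the pooled fit (7 at an unadjusted p under 0.05) and 1 with edgeR or DESeq2 (Fgb, higher). With limma, 1 marker was higher in both larger runs, and 1 was higher without run 200803Eng or with equal library totals. The median of the list was -0.21. The summed level of these markers had a median of 310107 in NDMA and 429207 in saline livers. By run, these medians were 288411 and 415235 in run 191212Eng, 271394 and 321660 in run 200803Eng, and 452286 and 464075 in run 210901Eng.

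**Figure D3:**
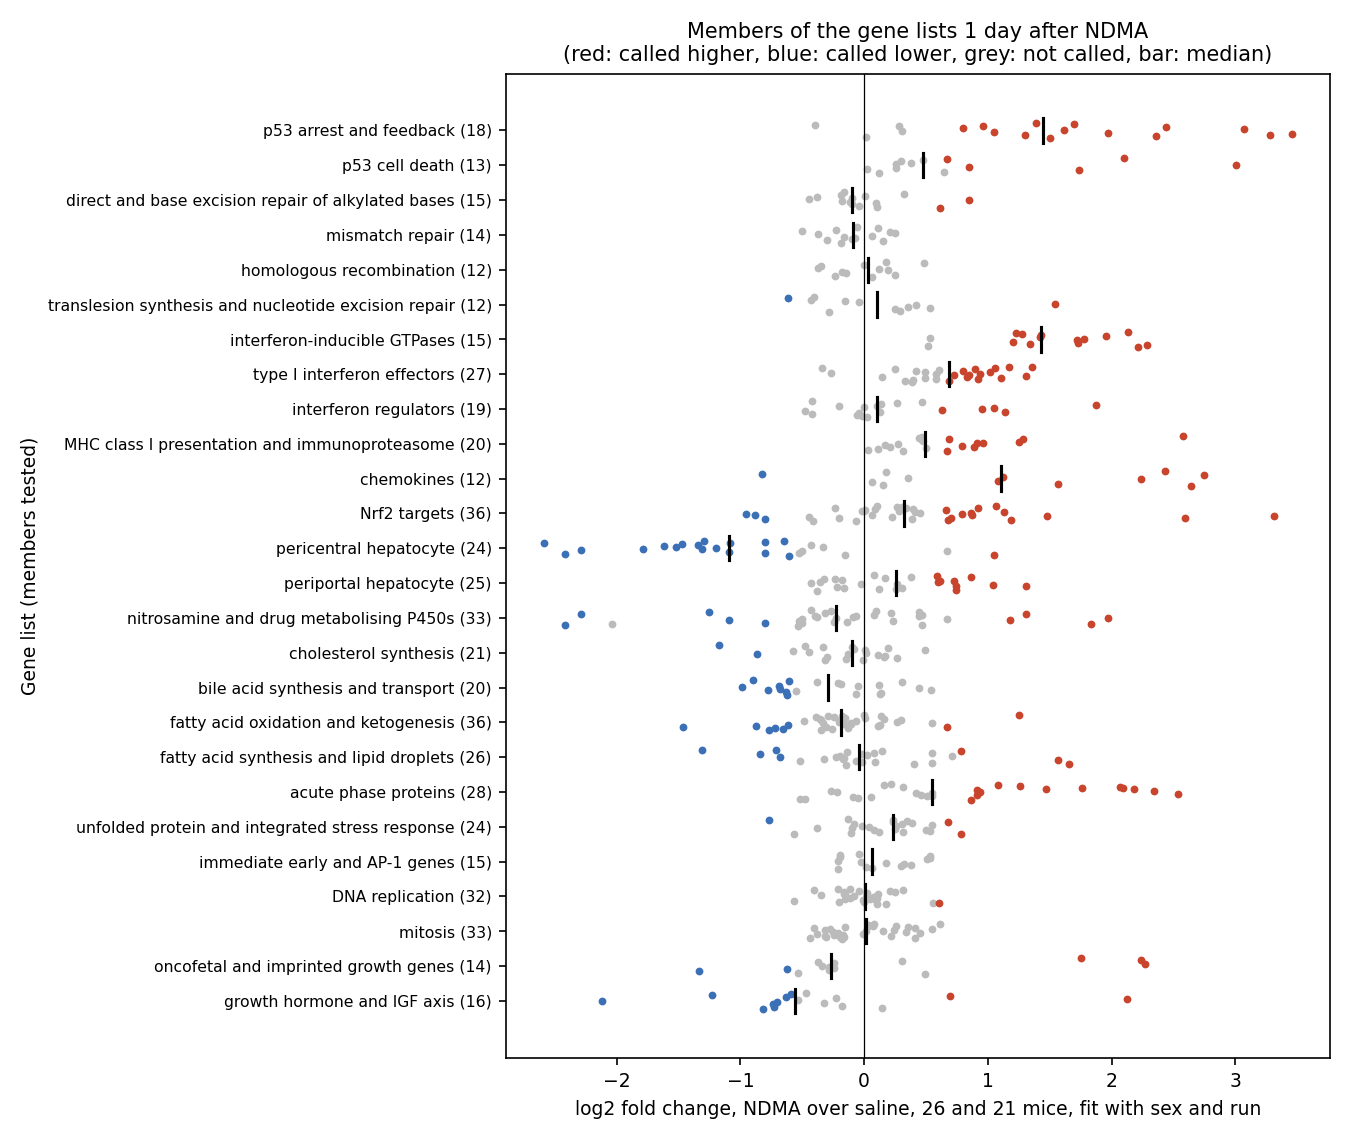
Log2 fold change of NDMA over saline in the pooled fit for each tested member of the gene lists, 1 row per list, with red points for members called higher, blue for lower, grey for others, and a bar at each list's median. The p53 arrest list and the interferon-inducible GTPases lie almost wholly above 0, with medians of 1.44 and 1.43, and the pericentral list lies mostly below, with a median of -1.09.

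Some markers of the sinusoidal wall were lower beside the pericentral genes. Of 18 tested markers of liver endothelium, 7 fell and 0 rose, with a median of -0.51 and summed medians of 540 in NDMA and 691 in saline livers. Of the 7, 3 passed in both larger runs, and 1 marker not called in the pooled fit was higher in both. The list's medians were -0.46, -0.09 and -0.60 in runs 191212Eng, 200803Eng and 210901Eng. With equal library totals, 4 fell and 1 rose. Rspo3 and Wnt2, secreted by endothelium of the central vein and known to maintain the pericentral program through Wnt signaling, fell by 1.32 and 0.80, and the scavenger receptors Stab2 and Stab1 fell by 0.97 and 0.69. Wnt2 lost its call without run 191212Eng and Stab1 with a pseudocount of 5. Rspo3 had 0.607, 8.32 and 28.0 in NDMA livers and 10.5, 18.8 and 31.7 in saline livers, overlapping, with 24 of 26 NDMA libraries below the saline median. The most abundant endothelial marker, Clec4g, had medians of 126 and 189. The part of these cells in the pericentral result was not tested.

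Of 16 tested stellate cell and fibroblast markers, 7 fell and 3 rose, with a median of -0.50 and summed medians of 1150 and 1674. Reln, a matrix glycoprotein of quiescent stellate cells, had 6.83, 13.96 and 60.6 in NDMA and 15.2, 57.7 and 139 in saline livers and fell by 1.90 (SE 0.18, adjusted p = 1.67e-11), with no overlap within either larger run. Ecm1 fell by 1.53 and Col3a1, a fibrillar collagen, by 1.15, while Timp1, an inhibitor of matrix proteases, rose by 1.09. Timp1 had log2 fold changes of 0.34 in run 191212Eng and 2.33 in run 210901Eng, and lost its call with total reads as a term.

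The growth hormone and IGF axis, which drives growth after birth, had 8 of 16 tested genes lower, 2 higher and a median of -0.56, and 1 was higher without the 3 libraries or without run 200803Eng. Of the 8 lower genes 4 passed in both larger runs, and of the 2 higher genes 1 did. Igfbp3, the main carrier of IGFs in blood, had 1.49, 7.40 and 67.9 in NDMA and 13.8, 36.5 and 63.0 in saline livers, and 20 of 26 NDMA libraries lay below every saline library. It fell by 2.11 (SE 0.22, adjusted p = 8.52e-11). Socs2 and Cish, feedback inhibitors induced by growth hormone, fell by 1.23 and 0.82 (Cish lost its call without run 191212Eng), and Mup20, a urinary protein of a family with near-identical copies, rose by 2.12.

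Acute phase proteins, which hepatocytes secrete under inflammatory cytokines, gave 13 of 28 higher and 0 lower, with a median of 0.55. Of the 13, 7 passed in both larger runs. Hamp, the iron hormone hepcidin, had 10.4, 75.6 and 636 in NDMA and 0, 6.89 and 222 in saline livers and rose by 2.53 (SE 0.45, adjusted p = 3.16e-05). The list's median in run 200803Eng was 0.01. The log2 fold change of Hamp was 3.42 and 3.02 in runs 191212Eng and 210901Eng and 0.07 in run 200803Eng, where the saline median, 128, was above the NDMA median, 122. Lcn2, which binds bacterial iron carriers, rose by 2.34 and Orm1 by 2.18, which lost its call without run 210901Eng. Saa1, serum amyloid A, had 101, 477 and 17455 in NDMA and 27.6, 77.4 and 20696 in saline livers, so that single libraries of either group reached the highest values, and it rose by 2.09 (SE 0.53, adjusted p = 0.00322). Saa1 lost its call with edgeR and without either larger run.

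Lipid and bile acid genes are read against 5.01% higher and 4.19% lower of all genes. Of 20 tested genes of bile acid synthesis and transport, 8 fell and 0 rose (median -0.30), and with equal library totals 5 fell and 1 rose. Of the 8, 3 passed in both larger runs. The lower genes included Hsd3b7 (-0.98), an early enzyme of the pathway, the uptake carrier Slco1b2 (-0.89), Cyp27a1 (-0.78) and the nuclear receptor Nr0b2 (-0.69). Of 36 genes of fatty acid oxidation and ketogenesis, 6 fell and 2 rose (median -0.19), which is 16.7% and 5.56%, led by Acot3 (-1.47), a peroxisomal thioesterase, and Vnn1 (1.25), a pantetheinase. In fatty acid synthesis and lipid droplets, 3 of 26 rose and 4 fell (median -0.04), with Apoa4 (1.65) and the elongase Elovl6 (1.56) against Thrsp (-1.31) and the carbohydrate sensor Mlxipl (-0.84). The count of higher genes was 6 without the 3 libraries and 5 without run 200803Eng or with equal library totals, and Thrsp, Mlxipl and Cyp27a1 lost their calls without run 210901Eng. Of 21 cholesterol synthesis genes, 2 fell, Tm7sf2 (-1.17), a sterol reductase, and Hmgcs1 (-0.86), which makes HMG-CoA, which is 9.52%, and the median was -0.10, while 4 fell without the 3 libraries or without run 200803Eng.

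Calls among cell division and general stress genes, against 5.01% higher and 4.19% lower of all genes, depended on the libraries and the scaling used. Of 33 mitosis genes 0 passed with limma (7 at an unadjusted p under 0.05) and 1 with edgeR or DESeq2 (Kif20a, higher), and the median was 0.01. The medians of the mitosis list were -0.18, -0.16 and 0.18 in runs 191212Eng, 200803Eng and 210901Eng. Of 15 immediate early genes 0 passed with limma (4 at an unadjusted p under 0.05) and 1 with edgeR or DESeq2 (Junb, higher), and the median was 0.06. Top2a, the topoisomerase of mitotic chromosomes, had medians of 64.7 in NDMA and 56.4 in saline livers and a log2 fold change of 0.03 (adjusted p = 0.914). Of 32 DNA replication genes 1 rose, Cdc6 (0.60), which loads the replicative helicase. Cdc6 lost its call with edgeR and DESeq2, with a pseudocount of 5, with no filter on the mean, with total reads as a term, with sex left out, with treatment as the sole term, without run 191212Eng and without the libraries of mismatched sex. In the unfolded protein and integrated stress response, 2 of 24 rose, the amino acid synthesis enzymes Asns (0.78) and Psat1 (0.68), and 1 fell, the mitochondrial Shmt2 (-0.77). Asns and Psat1 lost their calls without run 210901Eng, and Psat1 also without run 191212Eng and with a pseudocount of 5. Without the 3 libraries of run 200803Eng 5 genes of this list, 2 mitosis genes, 2 immediate early genes and 2 DNA replication genes were higher, and 1 DNA replication gene was lower. Without the whole run, 5 genes of the stress response list were higher and 2 lower. With equal library totals, 2 mitosis genes, 2 DNA replication genes and 1 immediate early gene were higher.

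Among genes of fetal liver or tumors, a few rose. Of 14 tested oncofetal and imprinted growth genes, 3 rose and 2 fell, with a median of -0.26, and 1 fell with equal library totals. The 3 and 2 genes are 21.4% and 14.3% of the list, against 5.01% higher and 4.19% lower of all genes. Ly6d, a surface protein found on dedifferentiated hepatocytes, had 23.3, 112 and 494 in NDMA and 8.80, 19.2 and 174 in saline livers, with all 26 NDMA libraries above the saline median, and rose by 2.27 (SE 0.31, adjusted p = 4.21e-07). Spink1, a secreted trypsin inhibitor, and Tff3, a mucosal repair peptide, rose by 2.24 and 1.75. The imprinted inhibitor of the cell cycle Cdkn1c fell by 1.33, with all 26 NDMA libraries at or below the saline median.

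Of the 10 genes with the largest increases and the 10 with the largest decreases among those called in both larger runs, some belong to none of the lists. Gm12250, a processed pseudogene in the annotation used here but a protein-coding gene in RefSeq with the synonym Irgb10, an interferon-inducible GTPase, rose by 2.76, Snhg15, a host transcript of a small nucleolar RNA, by 2.69, and Cox6b2, a testis form of a cytochrome c oxidase subunit, by 2.64. Cox6b2 had 16.3, 91.0 and 180 in NDMA livers and 3.66, 9.80 and 144 in saline livers, and no libraries of the groups overlapped within either larger run. Pnliprp1, a pancreatic lipase-related protein, had 2.58, 13.5 and 74.6 in NDMA and 1.69, 123 and 245 in saline livers and fell by 2.47. The pancreas markers did not move with it, with summed medians of 9.24 in NDMA and 9.09 in saline livers. Gm2788, Pcp4l1, Prodh, a proline oxidase, and Nxpe2 fell by 2.38, 2.24, 1.86 and 1.81.

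Whether the effect of NDMA differed between runs was tested directly. With all libraries, the treatment by run term passed at an adjusted p under 0.05 for 2 genes (0.0222% of those tested), Slfn2 and 1810053B23Rik, both with an adjusted p of 0.0398 by limma. Slfn2, an interferon-induced regulator of T cells, had log2 fold changes of 1.17, -0.87 and 0.93 in runs 191212Eng, 200803Eng and 210901Eng, and 1810053B23Rik, a noncoding transcript, had 2.67, 0.02 and 2.01. Without the 3 libraries, or without the 2 of mismatched sex, 0 genes passed with limma, with 789 and 706 at an unadjusted p under 0.05.

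The treatment by sex term gave 0 genes (0%) with limma, with 155 at an unadjusted p under 0.05. The smallest p was that of Vhl, the ubiquitin ligase subunit that degrades HIF, with a log2 fold change of -0.92 in females and 0.54 in males (difference 1.46, SE 0.39, p = 0.000466, adjusted p = 1.00). This does not show that the sexes responded alike.

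The first day was then set beside the 16 WT mice collected at 2 days and the 15 at 5 days after the second dose. Those libraries came from other runs, 1 of males and 1 of females, so run and time cannot be told apart. Some of the female libraries were shallower than any day 1 library, the lowest of which had 569017 reads. At day 2, NDMA library D215006 had 150038 reads and saline library D215004 had 392164, and at day 5 NDMA library D215014 had 202626. The treatment by time term passed for 220 of 8903 genes between day 1 and day 2 (2.47%) and for 285 between day 1 and day 5 (3.20%). p53 arrest genes had median log2 fold changes of 1.44, 0.94 and 1.21 at days 1, 2 and 5, and 0 of 18 passed the term at either day. Cdkn1a had 3.28 (SE 0.35), 3.35 (SE 0.59) and 3.97 (SE 0.61), with adjusted p of day 1 against days 2 and 5 of 0.976 and 0.682 by limma. These day 1 values include the 3 libraries named above, so the 3 days do not show a course over time. Without those libraries, the day 1 median of the p53 arrest genes was 1.70.

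For members of other lists the effect at day 1 differed from that at day 5. Of 21 cholesterol synthesis genes, 14 had a higher effect at day 1 than at day 5, where the list's median was -1.72 against -0.10 at day 1. Nsdhl and Msmo1, enzymes that take methyl groups off sterols, had log2 fold changes of 0.20 and 0.00 at day 1 and -2.60 and -2.90 at day 5 (adjusted p of the difference 9.41e-07 and 7.52e-06 with limma). Among Nrf2 genes 8 of 36 had a higher effect at day 1 than at day 5, and Ephx1 had 2.59, 1.32 and 0.87 at days 1, 2 and 5 (adjusted p of day 1 against day 5 0.00617). Acute phase genes had 7 of 28 higher at day 1 than at day 5, with Hamp at 2.53, 1.47 and -0.59 (adjusted p 0.0159). Of the interferon-inducible GTPases 2 of 14 passed between days 1 and 5, with medians of 1.43 and 0.48, and Gbp2 had 2.28 and 1.23 (adjusted p 0.356).

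Single genes also differed early. Between days 1 and 2 the smallest adjusted p was that of Mttp, which loads lipid onto lipoproteins, with 0.22 and -0.92. Entpd5, a nucleotidase of the endoplasmic reticulum, rose at day 1 (0.72) and had -0.62 at day 2, Habp2, a plasma protease, had -0.01 and -1.29, and Ext1, an enzyme of heparan sulfate, had -0.07 and 1.09.

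**Figure D4:**
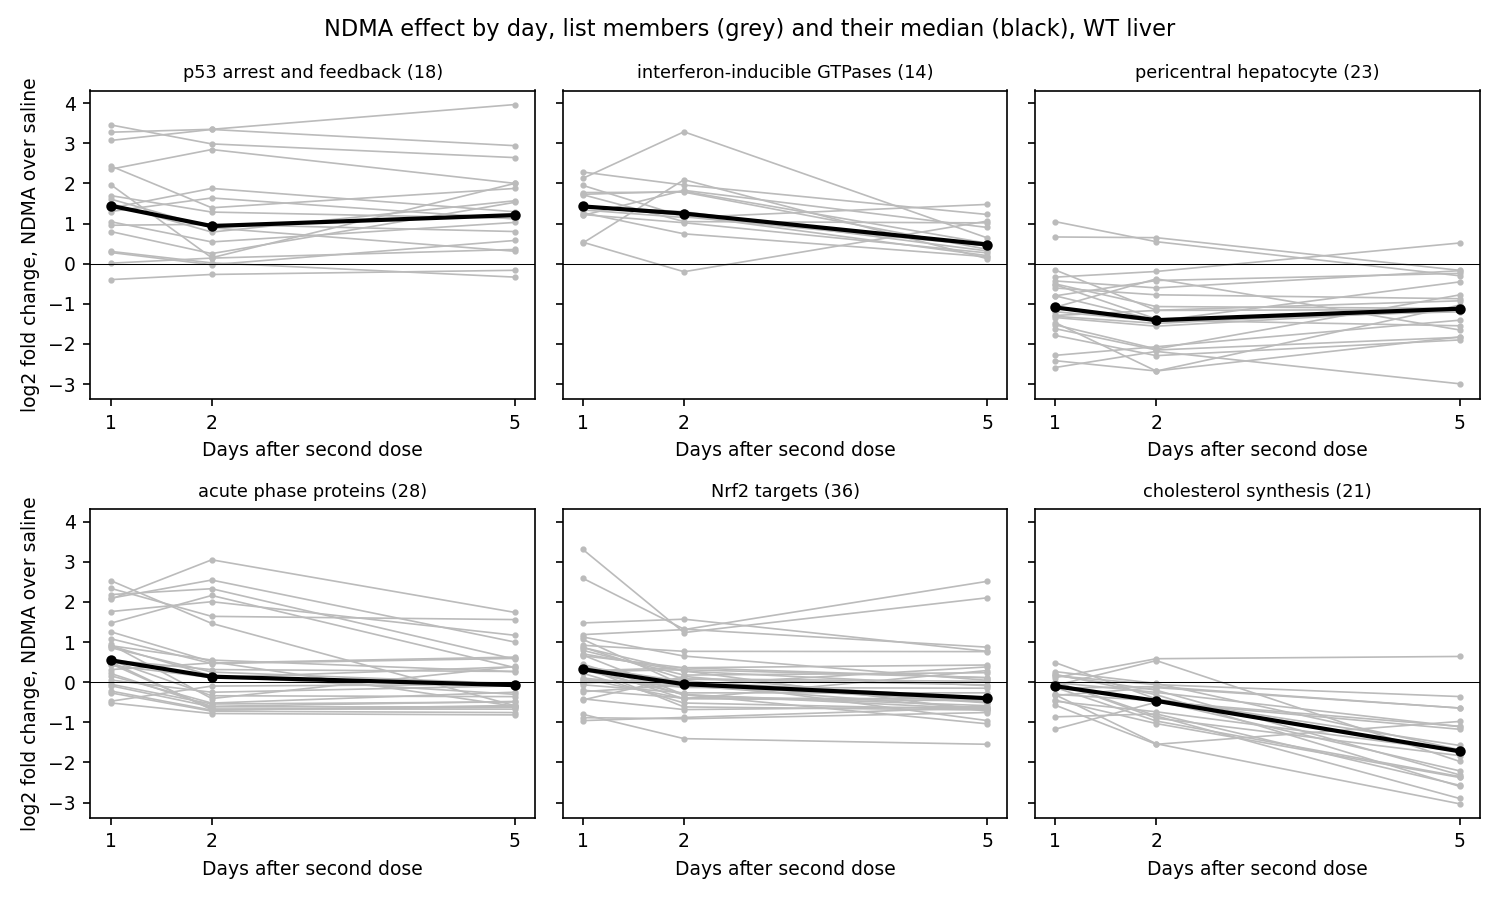
Log2 fold change of NDMA over saline at 1, 2 and 5 days after the second dose for the members of 6 gene lists (grey) and their median (black). The p53 arrest medians are 1.44, 0.94 and 1.21, and the cholesterol synthesis medians fall from -0.10 at day 1 to -1.72 at day 5.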

How the data were processed

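Deposited values were signal: gene counts of 3′ digital gene expression libraries with molecular identifiers in their primers, which the authors counted with ESAT and divided by a DESeq2 size factor per library. The submitters' processing notes name STAR, DESeq2 and GRCm38/mm10. Versions, and the handling of reads that match several genes, are not given in the sources used here. The WT table held 18647 genes, of which 9619 were below the minimum mean of 5 over the 47 libraries. Its other times supplied days 2 and 5, 39 of its columns were not used here, and neither was the Mgmt-/- table. All values of the day 1 libraries were whole multiples of the value of 1 read (100% within 0.1), so reads and depth were recovered. Depth limits precision for genes near the minimum mean.

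Groups, sex and run came from the labels. limma 3.58.1 (R 4.3.3, trend and robust) was run on log2(value + 1) with sex, run and treatment as terms, two-sided. Alternatives were pseudocounts of 0.5 and 5, no minimum mean or 20, treatment alone, run without sex, total reads as a term, equal totals, edgeR 4.0.16 and DESeq2 1.42.0 on recovered reads, no fold threshold, and leaving out a run, the sex-mismatched libraries or single mice. Leaving out the 3 libraries of run 200803Eng, edgeR within runs, and run and time terms without that run were chosen after seeing the data. The tests were also run on simulated counts with 200 changed genes, drawn without differences between runs, litters or libraries that stand apart. That check does not cover these features of the data.

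The libraries, the 26 gene lists and the 11 marker lists were chosen with earlier results of these data known. Named genes were Mgmt, Cyp2e1 and Cdkn1a, up to 4 called genes of each list with the largest change (where none was called, the 2 most abundant), the 5 with the smallest adjusted p of each term, and the 10 highest and 10 lowest of those called in every run. No gene met the last condition, and genes called in both larger runs were used instead, a choice made after values were seen, as was naming Irf7, Clec4g, Xist, Fgb, Kif20a and Junb. Of other marker lists, 2 of 8 neutrophil genes rose (Lcn2 and Ltf), 2 of 6 cholangiocyte genes rose (Krt18 and Spp1), of which Ltf and Spp1 lost their calls without run 210901Eng and Spp1 also with total reads as a term, and 0 of 9 erythroid genes passed with limma, edgeR or DESeq2 (4 at an unadjusted p under 0.05; Hbb-bs and Hbb-b1, near-identical copies, both -0.40). The sole pancreas gene tested, Cela2a, had 0.24, and 0 of 5 kidney genes reached the minimum. Tables were made in Python 3.11.15 (numpy 2.4.6, pandas 2.3.3) and figures with matplotlib 3.10.9.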

Additional observations from a re-analysis of the deposited data

Results flagged for a closer look

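In run 191212Eng, the NDMA library D389026 had 1569 normalized counts of Cyp2e1, far above the other 7 of its group. In run 200803Eng, the library labelled saline D209074 had 359 of Cdkn1a, far above the other 3 saline libraries, and in run 210901Eng the saline library D279006 had 38.8, above the other 8. Each gap was past Dixon's 95% critical value, which chance passes in about 5% of groups.

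The effect of NDMA differed between runs for Slfn2 and 1810053B23Rik (adjusted p of the limma term 0.0398 for each). Between days 1 and 2 it differed for Mttp (0.000515), Ext1 (0.000873), Habp2 (0.00114), Entpd5 (0.00165) and Atp5j2 (0.00209). Between days 1 and 5 it differed for Nsdhl (9.41e-07), Msmo1 (7.52e-06), and Tpp1, Cyp2c40 and Mtfp1 (0.000274 each), with log2 fold changes at days 1 and 5 of 0.68 and -0.98 for Tpp1, 1.17 and -0.46 for Cyp2c40, and -0.66 and 0.86 for Mtfp1.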

How the results depend on the processing

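The pooled count of 830 calls was 522 with a pseudocount of 5, 418 with a mean of at least 20, 518 without run 210901Eng and 1903 without the fold threshold. Run 191212Eng gave 608 calls with a mean of at least 20. Leaving out the 3 libraries gave 189 calls in run 200803Eng and 140 genes called in every run. Leaving out each mouse of run 200803Eng in turn gave 0 to 0 calls there. The run term gave 5 genes with no minimum mean, 0 without the sex-mismatched libraries and 0 without the 3 libraries, and the day 2 term gave 126 with no minimum mean. The cause was not tested beyond the number of genes or libraries each setting holds. The other settings kept these counts within 1.5 times.

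Of 102 named genes with a call, 22 lost it without run 210901Eng, 13 without run 191212Eng, 8 with a pseudocount of 5, 4 with total reads as a term, 2 with edgeR and 1 with DESeq2. The named genes whose sign turned had no call: Rpa3 (0.0489) and Dusp6 (-0.0372) with treatment alone, Dusp6 also without run 200803Eng (-0.00905), without run 210901Eng (-0.090) and without the 3 libraries (-0.00192), Btg1 (0.0177), Top2a (-0.0935) and Ttr (0.0256) without run 191212Eng, Cd79b with total reads as a term (-0.0852) and without run 210901Eng (-0.21), and Ms4a1 without run 210901Eng (-0.0281).

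No paired analysis was possible because the replicate names of NDMA and saline mice are not shared.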
